A study of Mus musculus with 20 samples.

Results

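Interferon-stimulated genes are the genes that cells switch on when an interferon binds its receptor. The 42 described here were chosen by symbol, as a list of well-known genes of this kind: 5 transcription factors, 5 RNA sensors and RNA-binding restriction factors, 4 members of the IFIT family, 5 of the OAS family, 11 other antiviral effectors, 6 genes of the ISG15, ubiquitin and ADP-ribosylation group and 6 interferon-inducible GTPases. All 42 are among the 23020 genes in the deposited values. The rule used gene symbols alone, but the list was chosen with earlier results of these data known. The study profiled crypts of the small intestine of C57BL/6 mice with a bulk RNA-seq method that reads the 3′ end of each poly(A) transcript and counts molecules by random barcodes. Mice were wild-type or Xiap-/-, lacking the X-linked inhibitor of apoptosis, a ubiquitin ligase that blocks caspases. They were either kept by genotype, called housed apart here, or mixed across genotypes for 4 weeks, called co-housed. Of the 20 libraries, 10 came from mice housed apart (6 wild-type, 4 Xiap-/-) and 10 from co-housed mice (5 of each genotype). Age, cage and the deleted stretch of Xiap are not in the labels.

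Type I and type III interferons signal through a complex that holds Stat2 and Irf9 and binds the interferon-stimulated response element in promoters. Interferon gamma acts through another promoter element, the gamma-activated site. In the intestine, epithelial cells respond mainly to type III interferon and, in part, to interferon gamma from lymphocytes between them, and microbes of the gut can set a basal level of the response.

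Values are on the log2 scale on which the authors deposited them, and their depth per library is unknown. Xiap itself was lower in Xiap-/- than in wild-type mice housed apart, 6.38 ± 0.10 (SD, n = 4) against 6.81 ± 0.17 (SD, n = 6), with an exact permutation p of 0.00476 over 210 splits. Between the co-housed groups it was 6.62 ± 0.22 (SD, n = 5) against 6.67 ± 0.20 (SD, n = 5), with an exact permutation p of 0.683 over 252 splits. By limma, the test used for the genes below, Xiap did not pass at an adjusted p under 0.05. Its limma adjusted p was 0.0599 for genotype housed apart, 0.868 co-housed and 0.0753 averaged over housings. The values of the co-housed genotypes overlapped, so Xiap does not check the genotype labels of the co-housed mice. A 3′ tag outside the deleted stretch would not show the deletion, and where the tag lies relative to that stretch is not known. Whether labels or samples were mixed was not tested. All 8 listed markers of Paneth cells, which sit at the base of crypts, were above the minimum mean used for testing. A stand-in for depth was used, the share of genes of mean below -3 whose value rose above the floor that the gene has in most libraries. It averaged 17.1% ± 10.5 (SD, n = 4) for Xiap-/- mice housed apart and between 7.71% and 8.77% for the other groups. Among marker lists of other cell types, T cells and intraepithelial lymphocytes had 14 of 16 markers above the minimum, stroma and endothelium 1 of 7 measured and myeloid cells 5 of 13. In bulk samples, fewer cells of a type and less RNA per cell cannot be told apart.

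Promoters were searched for the sites of these factors, since many of the genes varied together between mice, as described further on. RefSeq promoters (GRCm38.p6) were matched to 32 of the 42 genes. The core of the interferon-stimulated response element was searched as TTTC, any 2 bases and TTTC on both strands, with overlapping matches allowed, and was found within 250 bases before the start in 14 of the 32, or 43.8%, against 3.46% of all 27025 genes with a promoter. The gamma-activated site, TTCNNNGAA, which reads the same on both strands, was found in 10 of the 32, or 31.3%, against 8.13% of all genes. Within 100 bases before the start, the shares were 31.3% against 1.14% for the first motif and 18.8% against 3.01% for the second. A match describes letters and does not show binding. The genes were chosen as interferon-stimulated genes, so these shares do not bear on how the genes varied between mice. The windows below are from genes whose values are given further on, capitals mark matches of the named motif, and each is written 5′ to 3′ on the strand of its gene. For the response element, they are Isg15 (chr4:156200845-156200914, minus strand), Ifit1 (chr19:34640774-34640843, plus strand), Rsad2 (chr12:26456533-26456602, minus strand), Stat2 (chr10:128270248-128270315, plus strand), Bst2 (chr8:71537557-71537626, minus strand) and Igtp (chr11:58199492-58199555, plus strand). For the gamma-activated site, they are Irf1 (chr11:53769894-53769962, plus strand) and Irf8 (chr8:120736175-120736243, plus strand).
Isg15: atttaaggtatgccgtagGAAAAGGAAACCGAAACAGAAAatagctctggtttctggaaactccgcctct
Ifit1: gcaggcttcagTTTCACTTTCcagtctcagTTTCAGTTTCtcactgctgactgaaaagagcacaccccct
Rsad2: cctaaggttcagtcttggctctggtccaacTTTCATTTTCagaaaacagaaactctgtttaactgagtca
Stat2: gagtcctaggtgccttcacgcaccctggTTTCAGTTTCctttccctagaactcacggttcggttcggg
Bst2: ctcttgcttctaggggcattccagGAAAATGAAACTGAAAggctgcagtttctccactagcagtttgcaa
Igtp: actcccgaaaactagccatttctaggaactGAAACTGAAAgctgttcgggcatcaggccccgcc
Irf1: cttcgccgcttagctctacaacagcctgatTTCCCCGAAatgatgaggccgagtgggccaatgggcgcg
Irf8: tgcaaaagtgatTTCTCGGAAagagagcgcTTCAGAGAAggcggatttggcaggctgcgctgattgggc

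The response element was matched in Bst2, Gbp2, Gbp3, Gbp7, Ifit1, Ifit1bl1, Ifit3, Igtp, Irgm2, Isg15, Oas1a, Oas3, Rsad2 and Stat2. The gamma-activated site was matched in Bst2, Eif2ak2, Gbp7, Ifit2, Igtp, Irf1, Irf8, Irgm2, Isg20 and Oas1a. No promoter was matched to Ifi27, Dhx58, Oas2, Mx1, Mx2, Usp18, Iigp1, Rtp4, Parp9 and Parp14.

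Genes were tested from a mean of log2 of 10 upwards, which held for 31 of the 42 genes and 9521 of all genes. The 11 below that were Iigp1, Ifit2, Oas2, Isg20, Gbp3, Mx2, Mx1, Gbp2, Ifi44, Oas1a and Dhx58, with means from 0.75 (Iigp1, an inducible GTPase that acts on parasite vacuoles) to 3.15 (Dhx58, the RIG-I-like receptor LGP2). The range over the 20 libraries ran from 0.18 in Ifit2 to 0.88 in Oas1a, whose highest value, 3.72, was that of the Xiap-/- mouse 3 housed apart. Mx2 is annotated as a polymorphic pseudogene in GENCODE M21, so its low value may not describe the response. Oas2, one of the enzymes that make the RNase L activator, lay between 1.61 and 1.80, with a median of 1.70, in wild-type mice housed apart, and at 1.77, 1.53, 1.71 and 1.66 in Xiap-/- mice housed apart. It was 1.55, 2.18, 1.70, 1.87 and 1.69 in co-housed wild-type mice and 1.79, 1.60, 1.90, 1.70 and 1.65 in co-housed Xiap-/- mice. The groups overlapped, and the highest value was that of the co-housed wild-type mouse 2.

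None of the 31 tested genes passed the test in any of 7 comparisons by limma at a Benjamini-Hochberg adjusted p under 0.05. Of all 9521 genes, 0.452% passed for the genotype difference in mice housed apart and 0.0315% in co-housed mice. For co-housing against housing apart, 0% passed in wild-type and 0.147% in Xiap-/- mice. The difference between the genotype differences passed for 0.0105%, the genotype difference averaged over both housings for 2.06%, and the housing difference averaged over both genotypes for 0.179%. With so few genes passing anywhere, a count of 0 of 31 does not set the interferon-stimulated genes apart from the rest.

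At an unadjusted p under 0.05 in limma, 4 of the 31 genes passed for genotype in mice housed apart, 12.9% against 15.8% of all genes. In the same order of comparisons the other counts were 1, 2, 3, 3, 5 and 3 of 31. The shares among all genes were 12.0%, 10.2%, 11.3%, 7.05%, 20.5% and 14.4%. Under sample weights in limma, between 0 and 3 of the 31 passed after adjustment, in genotype and housing comparisons that involved the Xiap-/- mice housed apart. With these weights, 3 of the 31 and 385 of all tested genes passed for genotype in mice housed apart. The counts were 3 and 224 for housing in Xiap-/- mice, and 1 and 791 for genotype averaged over housings.

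The differences were small. The median over the 31 genes was -0.02 for genotype in mice housed apart and -0.01 in co-housed mice, and it was -0.04 for housing in wild-type and -0.03 in Xiap-/- mice, with 0.00, 0.00, -0.01 and 0.00 over all genes. No gene differed by more than 0.5 in any comparison. The 95% intervals of all 31 differences lay within -1 and 1 in every comparison. For genotype, 22 of the 31 intervals lay within -0.5 and 0.5 in mice housed apart and 29 of 31 in co-housed mice.

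**Figure D1:**
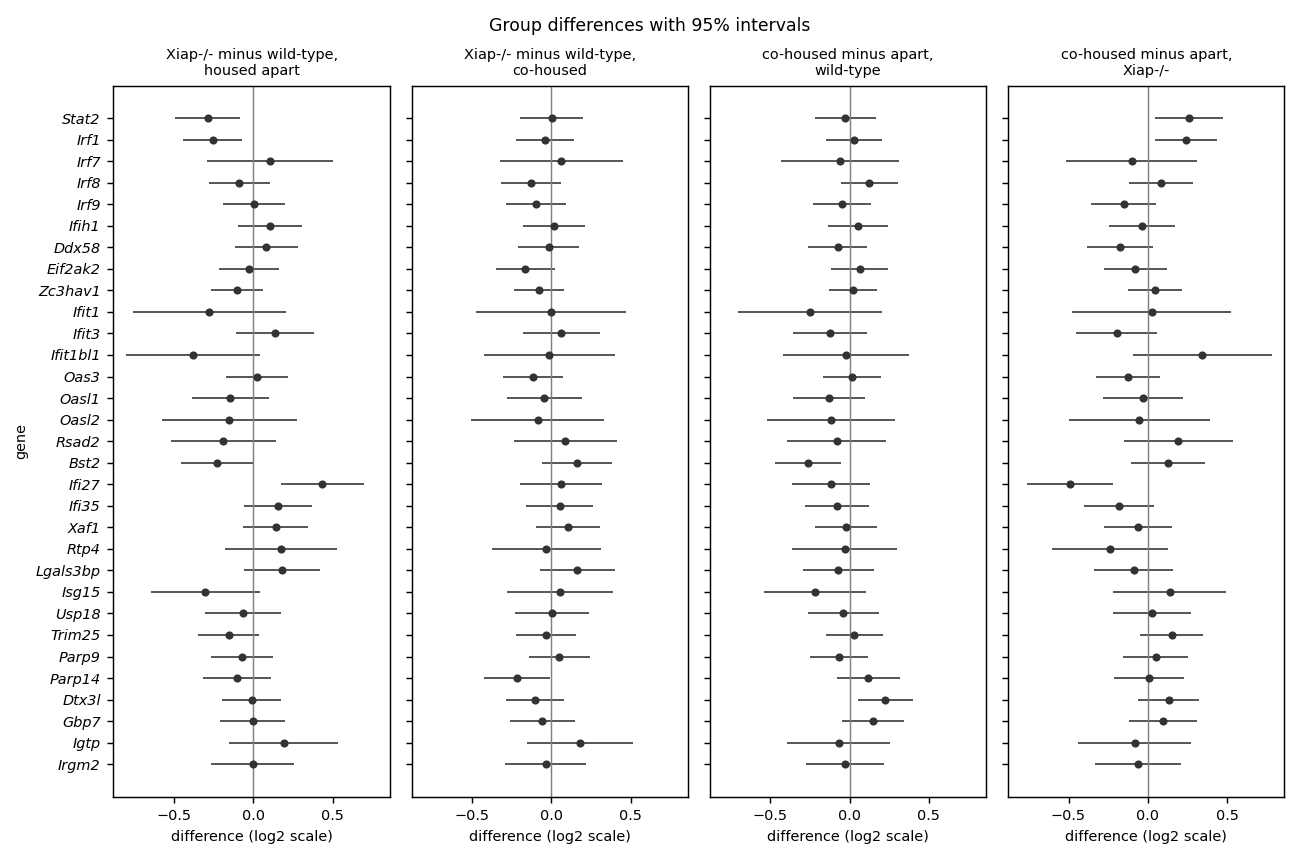
Difference between 2 groups for each of the 31 tested interferon-stimulated genes on the log2 scale (x axis), with the 95% interval from limma as a bar, for the 4 comparisons named above the panels. Points lie on both sides of 0 in every panel, and the points farthest from it, 0.44 and -0.49, are those of Ifi27 in the 2 comparisons with the Xiap-/- mice housed apart.

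The larger feature of these genes was a spread between mice of the same group, shared by many of them. The Xiap-/- mouse 3 housed apart had the highest value of its 4 mice in 27 of 31 genes, or 87.1%, against 37.3% of all tested genes. The co-housed wild-type mouse 2 was the highest of 5 in 23 of 31, or 74.2%, against 16.7% of all genes. The co-housed Xiap-/- mouse 3 was the highest of 5 in 19 of 31, or 61.3%, against 19.1%. Among the wild-type mice housed apart, the mouse most often on top was mouse 3, in 12 of 31, or 38.7%, against 16.8%. The mice were picked out after these values were seen, so the counts are descriptions without a test. The numbers are replicate numbers, and the labels link none of them across groups.

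**Figure D2:**
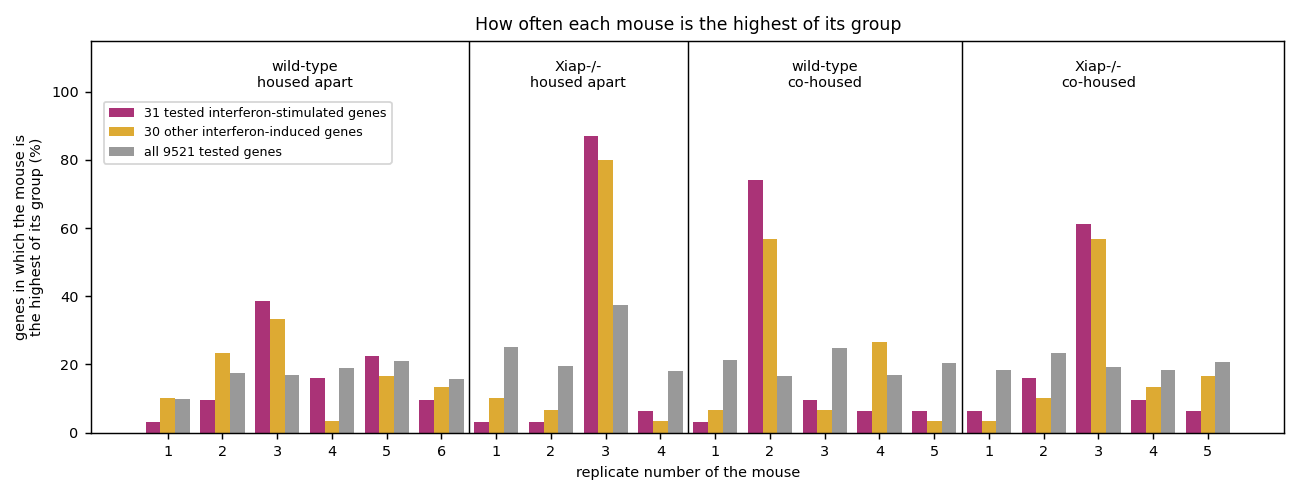
Share of genes (y axis, %) in which each mouse (x axis, replicate number within its group) has the highest value of its group, for the 31 tested interferon-stimulated genes, 30 other interferon-induced genes and all 9521 tested genes. Mouse 3 of the Xiap-/- mice housed apart (87.1%), mouse 2 of the co-housed wild-type mice (74.2%) and mouse 3 of the co-housed Xiap-/- mice (61.3%) stand above the bars of their group.

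In 13 of the 31 genes, all 3 of these mice were the highest of their groups, 41.9% against 1.37% of all genes. The 13 were Irf1, Irf7, Ifit1, Ifit1bl1, Oas3, Oasl1, Oasl2, Bst2, Isg15, Usp18, Trim25, Igtp and Irgm2. In Ddx58, Eif2ak2, Parp9, Parp14, Dtx3l and Gbp7 only 1 of the 3 mice was the highest, and none of the 31 genes had none of them on top, against 43.5% of all genes. The median difference of the mouse from the others of its group was 0.44 in the Xiap-/- mouse 3 housed apart, 0.22 in the co-housed wild-type mouse 2, 0.18 in the co-housed Xiap-/- mouse 3 and 0.10 in the wild-type mouse 3 housed apart.

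**Figure D3:**
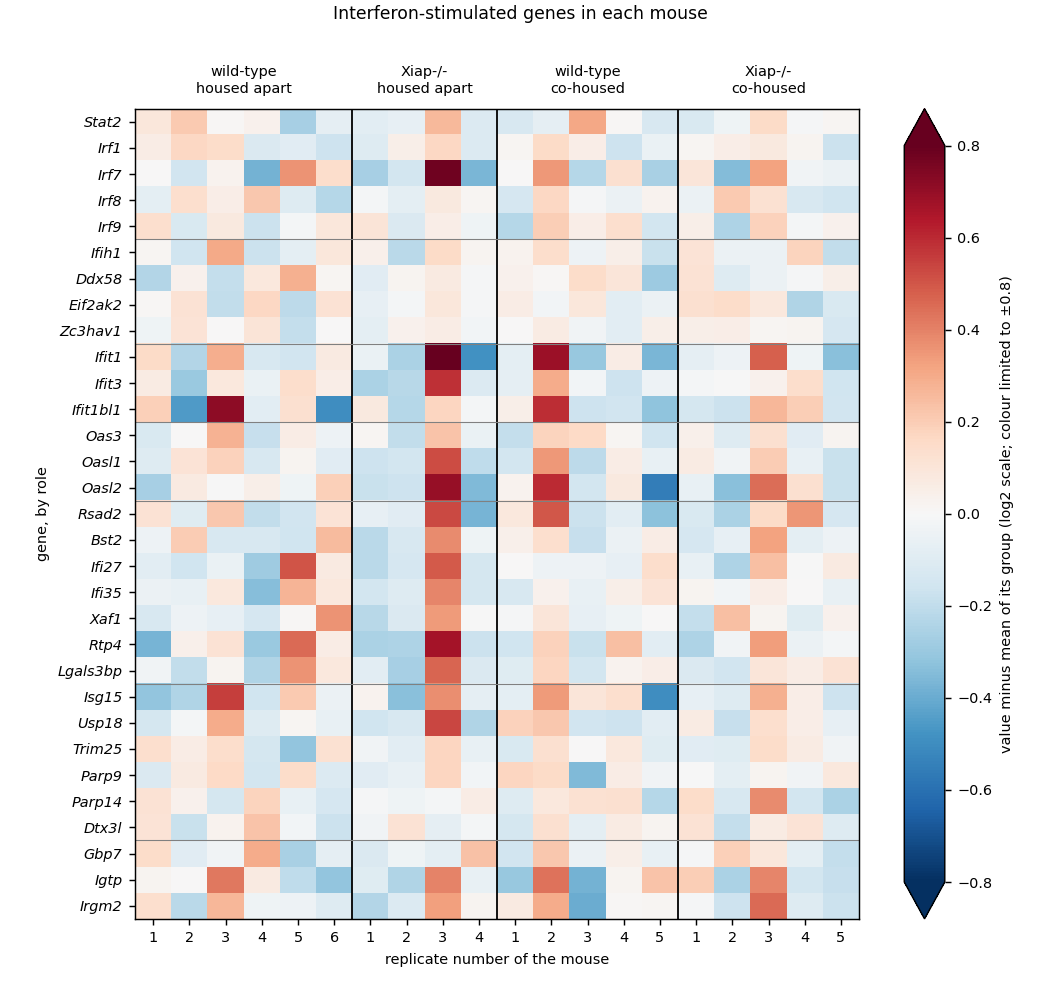
Value of each of the 31 tested interferon-stimulated genes (y axis, ordered by role) in each of the 20 mice (x axis, replicate number) minus the mean of its group on the log2 scale, red above and blue below the mean. Columns of mostly red cells are seen in mouse 3 of the Xiap-/- mice housed apart, mouse 2 of the co-housed wild-type mice and mouse 3 of the co-housed Xiap-/- mice, which lead in 27, 23 and 19 of 31 genes.

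The spread between mice of the same group differed widely among the 31 genes. The standard deviation between mice within groups had a median of 0.171 over the 31 genes, against 0.151 over all tested genes. It stood above the 90th percentile of all tested genes in 11 of 31, or 35.5%, and above the 95th percentile in 8. The highest were Ifit1 at 0.370 (99.4th percentile), Oasl2 at 0.339, Ifit1bl1 at 0.336 and Irf7 at 0.321. Zc3hav1, an antiviral gene too, had the lowest at 0.083 (1.12th percentile).

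**Figure D4:**
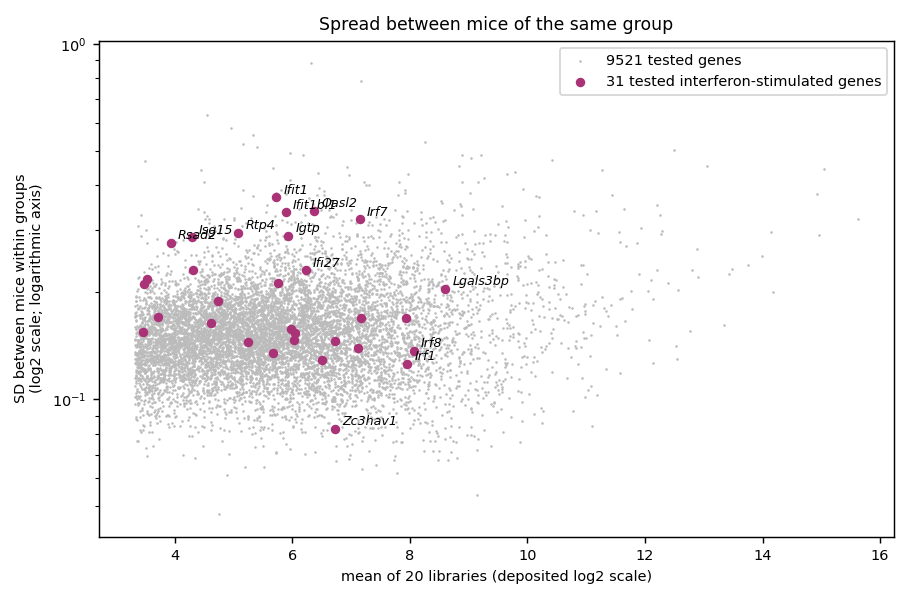
Standard deviation between mice within groups (y axis, logarithmic, log2 scale) against the mean of 20 libraries (x axis, log2 scale) for 9521 tested genes in grey and the 31 tested interferon-stimulated genes in colour. Ifit1, Oasl2, Ifit1bl1 and Irf7 lie near the upper edge of genes of like mean, between 0.321 and 0.370, and Zc3hav1 lies near the lower edge at 0.083.

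Of the transcription factors, Irf7 is the interferon-induced factor that amplifies the response. Its values were 6.98, 7.10, 8.02 and 6.88 in Xiap-/- mice housed apart and ran from 6.76 to 7.50, with a median of 7.15, in wild-type mice housed apart. In co-housed mice they were 7.08, 7.43, 6.85, 7.21 and 6.82 in the wild-type and 7.24, 6.80, 7.46, 7.12 and 7.09 in Xiap-/- mice. Mouse 3 of the Xiap-/- mice housed apart was above every other library, and the other mice of all groups overlapped. The genotype difference in mice housed apart was 0.10 with that mouse and -0.16 without it. The last exon of Irf7 (chr7:141262706-141266481, minus strand) overlaps Phrf1 on the other strand, and since the counting strand is not given in the sources used here, reads of Phrf1 cannot be told apart from those of Irf7.

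Stat2 is a signal transducer of type I and III interferons. It was 5.68, 5.71, 6.03 and 5.66 in Xiap-/- mice housed apart and between 5.79 and 6.26, with a median of 6.08, in wild-type mice housed apart. Co-housed wild-type mice had 5.90, 5.96, 6.34, 6.04 and 5.90, and co-housed Xiap-/- mice 5.91, 5.99, 6.19, 6.02 and 6.04. So 3 of the 4 Xiap-/- mice housed apart lay below all other libraries, and the other, mouse 3, lay within the range of the rest. The genotype difference in mice housed apart was -0.29 ± 0.10 (SE, limma adjusted p = 0.166), that between housings of Xiap-/- mice 0.26 ± 0.10 (SE, limma adjusted p = 0.349), and the difference between the genotype differences 0.29 ± 0.14 (SE, limma adjusted p = 0.707). Without the wild-type mouse 5 housed apart, the lowest of its group, the genotype difference of Stat2 in mice housed apart passed with a limma adjusted p of 0.0315, as did 697 of all 9521 genes against 43 with that mouse in. The stand-in for depth was 14.9% in that mouse, the highest of its group.

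Irf1, the factor first induced by interferon gamma, had a like order. It was 7.65, 7.79, 7.92 and 7.64 in Xiap-/- mice housed apart, and between 7.84 and 8.17, with a median of 7.99, in wild-type mice housed apart. Values were 8.05, 8.18, 8.08, 7.87 and 7.98 in co-housed wild-type and 8.01, 8.05, 8.07, 8.01 and 7.82 in co-housed Xiap-/- mice. All groups overlapped, through mouse 3 alone where the Xiap-/- mice housed apart are concerned. The genotype difference was -0.25 ± 0.09 (SE, limma adjusted p = 0.173) in mice housed apart and the housing difference 0.24 ± 0.10 (SE, limma adjusted p = 0.344) in Xiap-/- mice.

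Irf8, a factor best known from immune cells, had the highest mean of the 5 factors. It was 7.95, 7.89, 8.04 and 7.99 in Xiap-/- mice housed apart and between 7.83 and 8.27, with a median of 8.04, in wild-type mice housed apart. In co-housed mice it was 8.04, 8.34, 8.17, 8.13 and 8.21 in the wild-type and 8.0, 8.26, 8.18, 7.92 and 7.89 in Xiap-/- mice. The 4 groups overlapped. Irf9, the DNA-binding part of the complex with Stat2, differed by between -0.15 and 0.01 over the 4 comparisons of 2 groups, and its 3′ end holds a repeat that other transcripts share.

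Of the RNA sensors, Ifih1 (MDA5) and Ddx58 (RIG-I), which detect viral RNA in the cytoplasm, differed by 0.11 and 0.08 for genotype in mice housed apart. Eif2ak2 is the kinase PKR, which halts translation on double-stranded RNA. It was 5.82, 5.74, 5.85, 5.67 and 5.71 in co-housed wild-type and 5.72, 5.74, 5.68, 5.35 and 5.47 in co-housed Xiap-/- mice. It lay between 5.48 and 5.86, with a median of 5.76, in wild-type mice housed apart and at 5.60, 5.66, 5.76 and 5.66 in Xiap-/- mice housed apart. The groups overlapped, and the co-housed difference was -0.17 ± 0.09 (SE, limma adjusted p = 0.473).

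Zc3hav1 encodes ZAP, which binds CpG-rich viral RNA. It was 6.58, 6.70, 6.72 and 6.64 in Xiap-/- mice housed apart and between 6.57 and 6.87, with a median of 6.76, in wild-type mice housed apart. Values were 6.78, 6.85, 6.75, 6.70 and 6.83 in co-housed wild-type and 6.75, 6.76, 6.72, 6.73 and 6.57 in co-housed Xiap-/- mice. All 20 values lay within a narrow band, and the groups overlapped.

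**Figure D5:**
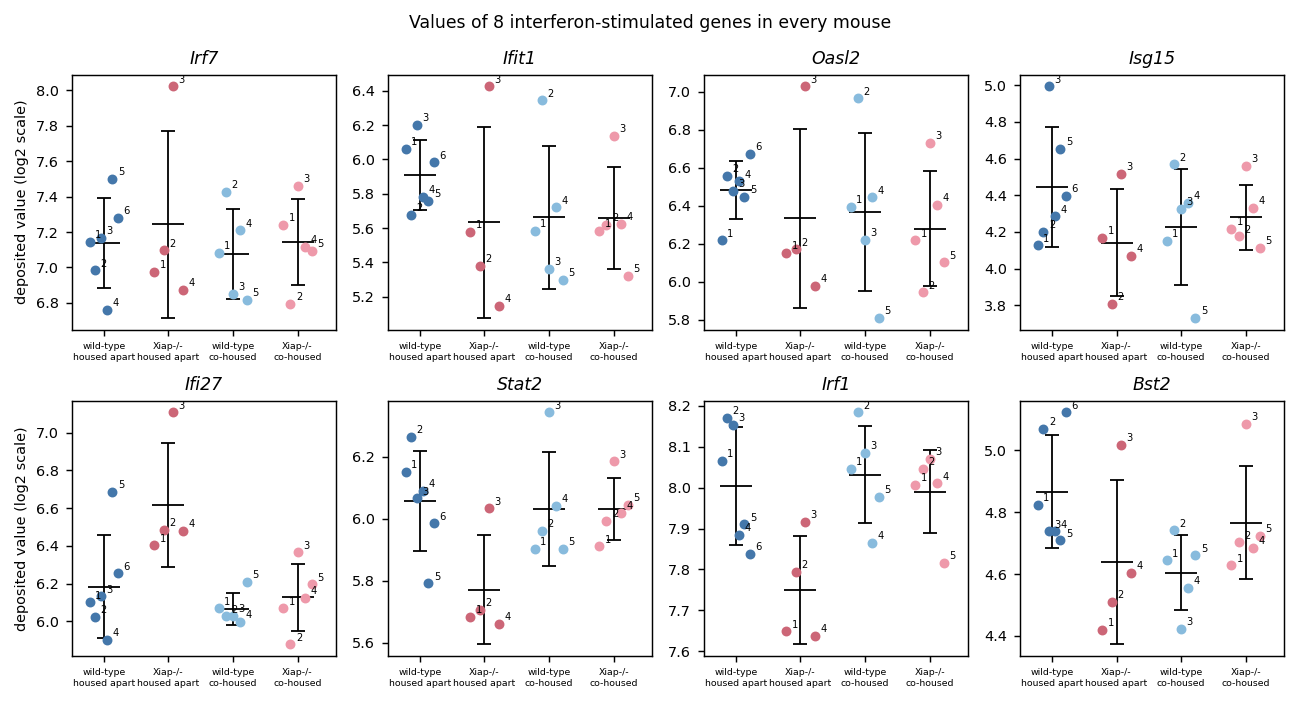
Deposited values (y axis, log2 scale) of 8 interferon-stimulated genes in every mouse of the 4 groups (x axis), with replicate numbers beside the points and the mean and SD of each group in black. For Irf7, Ifit1 and Oasl2, mouse 3 of the Xiap-/- mice housed apart (8.02, 6.43 and 7.03) has the highest value of all 20, and for Ifi27 it has 7.11.

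Ifit1 encodes a protein that binds viral RNA lacking the host cap, and it varied most between mice. It was 5.58, 5.38, 6.43 and 5.15 in Xiap-/- mice housed apart and between 5.68 and 6.20, with a median of 5.88, in wild-type mice housed apart. Values were 5.59, 6.35, 5.36, 5.72 and 5.30 in co-housed wild-type and 5.59, 5.62, 6.14, 5.63 and 5.32 in co-housed Xiap-/- mice. One mouse stood above the others in each of these groups of 4 or 5, by 1.06, 0.85 and 0.60 over the mean of the rest. The genotype difference in mice housed apart was -0.28 with mouse 3 and -0.54 without it, and neither passed.

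Ifit1bl1, a paralog near it on chromosome 19, had its highest value in another mouse. It was 5.67, 5.37, 5.77 and 5.58 in Xiap-/- mice housed apart and between 5.48 and 6.69, with a median of 6.00, in wild-type mice housed apart. In co-housed mice it was 6.00, 6.54, 5.79, 5.80 and 5.63 in the wild-type and 5.80, 5.77, 6.21, 6.14 and 5.79 in Xiap-/- mice. The highest value of all was in the wild-type mouse 3 housed apart, 0.86 above the others of its group. The values of Xiap-/- mice did not overlap between housings for Ifit1bl1 and Ifi27, 2 of 31 genes, and for Ifit1bl1 they all but touched (5.7670 housed apart and 5.7671 co-housed), where 5.63% of all genes did not. For genotype and for housing in wild-type mice, 0 of 31 had groups that did not overlap, against 1.87% of all genes between genotypes kept apart, 3.09% between co-housed genotypes and 0.525% between housings of the wild-type. Ifit3, of the same family, had 4.27 in the Xiap-/- mouse 3 housed apart, with 3.43, 3.46 and 3.57 in the other Xiap-/- mice housed apart, and cannot be fully separated from Ifit3b, with which its last 400 bases are 95% identical.

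Of the OAS family, Oasl2, which has a ubiquitin-like tail, had the highest mean. It was 6.15, 6.17, 7.03 and 5.98 in Xiap-/- mice housed apart and between 6.22 and 6.67, with a median of 6.50, in wild-type mice housed apart. Values were 6.39, 6.96, 6.22, 6.44 and 5.81 in co-housed wild-type and 6.22, 5.95, 6.73, 6.41 and 6.10 in co-housed Xiap-/- mice. The other 3 Xiap-/- mice housed apart lay below all wild-type mice housed apart, and mouse 3 lay above all of them. The genotype difference in mice housed apart was -0.15 with mouse 3 and -0.38 without it. Oasl1, which restrains translation of Irf7, stood 0.70, 0.44 and 0.25 above the rest of the group in the same 3 mice, and Oas3 0.30, 0.22 and 0.16.

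Among the other antiviral effectors, Ifi27 encodes a small mitochondrial membrane protein and had the smallest p of the 31 genes for genotype in mice housed apart. It was 6.40, 6.49, 7.11 and 6.48 in Xiap-/- mice housed apart and between 5.90 and 6.69, with a median of 6.12, in wild-type mice housed apart. Values were 6.07, 6.03, 6.03, 6.00 and 6.21 in co-housed wild-type and 6.07, 5.88, 6.37, 6.12 and 6.20 in co-housed Xiap-/- mice. All 4 Xiap-/- mice housed apart lay above all co-housed mice, and the wild-type mouse 5 housed apart, at 6.69, lay among them. The genotype difference in mice housed apart was 0.44 ± 0.13 (SE, limma adjusted p = 0.106) and the housing difference in Xiap-/- mice -0.49 ± 0.13 (SE, limma adjusted p = 0.121). Without the wild-type mouse 5 housed apart, they passed, with limma adjusted p-values of 0.00487 and 0.0296, in fits where 697 and 64 of all 9521 genes passed. Without the Xiap-/- mouse 3 housed apart, at 7.11, they were 0.27 (limma adjusted p = 0.338) and -0.33 (limma adjusted p = 0.560). In co-housed mice the genotype difference of Ifi27 was 0.06, and the difference between the genotype differences was -0.38 ± 0.18 (SE, limma adjusted p = 0.697).

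Bst2, or tetherin, holds budding virus at the cell surface. It was 4.42, 4.51, 5.02 and 4.60 in Xiap-/- mice housed apart and between 4.71 and 5.12, with a median of 4.78, in wild-type mice housed apart. Values were 4.64, 4.74, 4.42, 4.56 and 4.66 in co-housed wild-type and 4.63, 4.70, 5.09, 4.69 and 4.72 in co-housed Xiap-/- mice. The wild-type groups overlapped through the co-housed mouse 2, at 4.74, which lay above the lowest mouse housed apart, with a difference of -0.26 ± 0.10 (SE, limma adjusted p = 0.421). The co-housed genotype difference was 0.16 ± 0.11 (SE, limma adjusted p = 0.567), and the difference between the genotype differences, 0.39 ± 0.15, had a limma adjusted p of 0.614.

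Lgals3bp, a secreted glycoprotein that binds galectins, was 8.65, 8.48, 9.21 and 8.63 in Xiap-/- mice housed apart and between 8.32 and 8.92, with a median of 8.56, in wild-type mice housed apart. Values were 8.39, 8.66, 8.34, 8.52 and 8.54 in co-housed wild-type and 8.54, 8.50, 8.75, 8.71 and 8.77 in co-housed Xiap-/- mice. Mouse 3 of the Xiap-/- mice housed apart was the highest of all, and the groups overlapped. Rtp4, a chaperone of receptors that also curbs flavivirus replication, stood 0.89 above the others in that mouse. Rsad2, or viperin, which makes a chain terminator of viral RNA synthesis, stood 0.71 above them there, 0.62 in the co-housed wild-type mouse 2 and 0.19 in the co-housed Xiap-/- mouse 3.

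Isg15 is the ubiquitin-like modifier of the response. It was 4.17, 3.81, 4.52 and 4.07 in Xiap-/- mice housed apart and between 4.13 and 5.00, with a median of 4.34, in wild-type mice housed apart. Values were 4.15, 4.57, 4.33, 4.36 and 3.73 in co-housed wild-type and 4.22, 4.18, 4.56, 4.33 and 4.11 in co-housed Xiap-/- mice. The groups overlapped, and the highest of all was the wild-type mouse 3 housed apart. A stretch of 238 bases at the 3′ end of Isg15 is 95.4% identical to the transcript AC151275.1, so its level is uncertain. Usp18, the protease that removes Isg15 from its targets and dampens the receptor, stood 0.71, 0.27 and 0.17 above the rest of the group in the Xiap-/- mouse 3 housed apart, the co-housed wild-type mouse 2 and the co-housed Xiap-/- mouse 3.

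Parp14 and Dtx3l had no high value in the Xiap-/- mouse 3 housed apart. Parp14, an ADP-ribosyltransferase, was 7.20, 7.38, 7.42, 7.43 and 7.07 in co-housed wild-type and 7.23, 6.96, 7.46, 6.94 and 6.83 in co-housed Xiap-/- mice. It was 7.07, 7.04, 7.06 and 7.14 in Xiap-/- mice housed apart, with no mouse standing out, and between 7.04 and 7.36, with a median of 7.17, in wild-type mice housed apart. The co-housed groups overlapped, with a difference of -0.22 ± 0.10 (SE, limma adjusted p = 0.396).

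Dtx3l, the ubiquitin ligase that pairs with Parp9, was 6.50, 6.77, 6.56, 6.71 and 6.66 in co-housed wild-type mice and between 6.24 and 6.65, with a median of 6.42, in wild-type mice housed apart. Values were 6.65, 6.35, 6.60, 6.65 and 6.44 in co-housed and 6.38, 6.53, 6.34 and 6.39 in Xiap-/- mice housed apart. The wild-type groups overlapped, with a difference of 0.23 ± 0.09 (SE, limma adjusted p = 0.393). In the Xiap-/- mouse 3 housed apart, Parp14, Dtx3l and Gbp7 were the 3 of 31 genes below the mean of the other mice, by -0.02, -0.10 and -0.11.

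Of the interferon-inducible GTPases, some of which coat the vacuoles of intracellular microbes, Igtp (Irgm3) had the highest mean. It was 5.98, 5.83, 6.47 and 6.01 in Xiap-/- mice housed apart and between 5.57 and 6.30, with a median of 5.89, in wild-type mice housed apart. Values were 5.51, 6.24, 5.43, 5.83 and 6.04 in co-housed wild-type and 6.19, 5.74, 6.38, 5.85 and 5.81 in co-housed Xiap-/- mice. The groups overlapped, and the highest mouse of each group was the one most often on top there over the 31 genes. Irgm2 stood 0.44, 0.37 and 0.57 above the rest in the Xiap-/- mouse 3 housed apart, the co-housed wild-type mouse 2 and the co-housed Xiap-/- mouse 3.

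Gbp7, a guanylate-binding protein, was 4.44, 4.52, 4.48 and 4.79 in Xiap-/- mice housed apart and between 4.30 and 4.86, with a median of 4.51, in wild-type mice housed apart. Values were 4.56, 4.92, 4.66, 4.75 and 4.65 in co-housed wild-type and 4.64, 4.84, 4.74, 4.57 and 4.46 in co-housed Xiap-/- mice. The groups overlapped, and the housing difference in wild-type mice was 0.15 ± 0.10 (SE, limma adjusted p = 0.605). Gbp7 was highest in mouse 2 of the co-housed wild-type group and not in mouse 3 of either Xiap-/- group.

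The tested genes were also split by a match to the response element, and their difference from the rest of the group was read in the mice that led. In the Xiap-/- mouse 3 housed apart, the median was 0.50 over 11 genes with a match (from -0.11 to 1.06). It was 0.22 over 15 genes without (from -0.10 to 1.04) and 0.65 over the 5 genes with no promoter entry. The ranges with and without a match nearly coincided. In the same order, the medians were 0.37, 0.18 and 0.19 in the co-housed wild-type mouse 2, 0.33, 0.11 and 0.30 in the co-housed Xiap-/- mouse 3, and 0.32, 0.03 and 0.14 in the wild-type mouse 3 housed apart. Of the genes with the widest spread, Ifit1 and Ifit1bl1 had a match in their windows, and Irf7 and Oasl2 had none. Stat2 had a match and differed from the rest of its group by 0.35, -0.09 and 0.19 in the first 3 of these mice. The split by motif was read in the mice chosen for their high values and has no test.

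The medians over the 31 genes moved when the Xiap-/- mouse 3 housed apart was left out. Without it, the median genotype difference in mice housed apart was -0.11 over the 31 genes, with 9 higher and 22 lower, against -0.02, with 12 higher and 19 lower, with it. The median housing difference in Xiap-/- mice was 0.07 without it, with 22 higher and 9 lower, against -0.03. No gene of the 31 passed without it. The number of all genes passing for genotype in mice housed apart was 10 without it and 43 with it.

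Markers of T cells and intraepithelial lymphocytes moved with 2 of the 3 leading mice. The Xiap-/- mouse 3 housed apart was the highest of its group in 14 of 14 tested markers and the co-housed Xiap-/- mouse 3 in 10 of 14. The co-housed wild-type mouse 2 was the highest in 0 of 14, and the wild-type mouse 3 housed apart in 1 of 14. The log2 of the summed level of the markers ran from 10.43 to 11.24 in Xiap-/- mice housed apart, from 10.26 to 11.12 in wild-type mice housed apart, from 9.82 to 10.56 in co-housed wild-type and from 10.05 to 11.12 in co-housed Xiap-/- mice. Gzma, a protease of cytotoxic lymphocytes and the highest of these markers, was 9.81 in both of the Xiap-/- mice, and Cd8b1 and Cd2 were below the minimum in mean. In the co-housed wild-type mouse 2 the summed level was 10.33, within the range of its group. Other mice led these markers without leading the interferon-stimulated genes: the co-housed wild-type mouse 1 in 9 of 14, and the wild-type mice 5 and 1 housed apart in 7 and 6 of 14. The Xiap-/- mouse 3 housed apart also had the highest summed level of its group for absorptive enterocytes (15.83 against 15.32 to 15.60), goblet cells (14.36 against 13.69 to 13.94), myeloid cells (7.37 against 7.02 to 7.07), B and plasma cells (8.66 against 8.23 to 8.37), stroma and endothelium (4.54 against 4.37 to 4.49) and the hepatocyte list (11.69 against 11.09 to 11.21), whose highest marker, Apoc3, is made by enterocytes too. It had the lowest for stem and dividing cells (9.14 against 9.48 to 9.65) and Paneth cells (15.37 against 15.38 to 15.72). The part of these cells in the values of the interferon-stimulated genes was not tested. The stand-in for depth was 9.55% in the Xiap-/- mouse 3 housed apart, the lowest of its group.

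Of 10 listed interferon ligands, Ifng was the one in the deposited values, and it lay between -1.79 and -1.70 in all 20 libraries, below the minimum, with no mouse apart from the rest. Of the receptors, all 6 were tested and none passed in the 7 comparisons by limma, with at most 3 at an unadjusted p under 0.05. Those 3 of 6 were counted for genotype in mice housed apart (15.8% of all genes) and for genotype averaged over housings (20.5% of all genes). Ifngr2, a chain of the interferon gamma receptor and the highest in mean, was 8.56 ± 0.08 (SD, n = 4) in Xiap-/- and 8.33 ± 0.22 (SD, n = 6) in wild-type mice housed apart, and 8.31 ± 0.10 (SD, n = 5) and 8.21 ± 0.09 (SD, n = 5) in co-housed mice. The groups housed apart overlapped. Of 14 listed genes of upstream sensing, 7 were tested and none passed, with at most 1 at an unadjusted p under 0.05. Tbk1, the kinase that activates Irf3 and the highest of these in mean, differed by -0.02 for genotype in mice housed apart and by -0.21 in co-housed mice.

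Among the 5 JAK-STAT transducers and 7 negative regulators, all tested, Stat3 and Socs3 passed, both for the genotype difference averaged over housings. In that comparison 196 of all 9521 genes, or 2.06%, passed, the highest share of the 7 comparisons. Stat3, which carries signals of interleukins such as IL-6 and IL-22, was lower in Xiap-/- mice, with a difference of -0.29 ± 0.07 (SE, limma adjusted p = 0.0234). It was 7.34, 7.10, 7.28 and 7.30 in Xiap-/- mice housed apart and between 7.41 and 7.85, with a median of 7.58, in wild-type mice housed apart, so those groups did not overlap, as in 1.87% of all genes. It was 7.43, 7.31, 7.59, 7.40 and 7.44 in co-housed Xiap-/- and 7.48, 7.50, 7.91, 7.72 and 7.72 in co-housed wild-type mice, which overlapped by 1 Xiap-/- mouse. Leaving out single mice ended the call for Stat3 in 3 cases: the Xiap-/- mouse 2 housed apart (limma adjusted p = 0.0575), the co-housed wild-type mouse 3 (limma adjusted p = 0.0589) and the co-housed Xiap-/- mouse 5 (limma adjusted p = 0.0515).

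Socs3, the feedback inhibitor that Stat3 induces, was lower too, with a difference of -0.41 ± 0.09 (SE, limma adjusted p = 0.0195). It was 3.82, 3.94, 4.09 and 3.88 in Xiap-/- mice housed apart and between 4.16 and 4.54, with a median of 4.46, in wild-type mice housed apart. Values were 3.90, 4.14, 4.65, 3.99 and 4.33 in co-housed Xiap-/- and 4.31, 4.23, 4.95, 4.51 and 4.67 in co-housed wild-type mice. The groups housed apart did not overlap, as in 1.87% of all genes, and the co-housed groups did. With the stand-in for depth as a covariate, neither passed, with limma adjusted p-values of 0.178 for Stat3 and 0.0967 for Socs3. In that fit 6 of all genes passed for genotype averaged over housings.

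A further 53 interferon-induced genes, outside the 42, were listed, and 30 of them were tested. None passed in any of the 7 comparisons by limma, with 8, 4, 2, 6, 6, 5 and 1 of 30 at an unadjusted p under 0.05, where 15.8%, 12.0%, 10.2%, 11.3%, 7.05%, 20.5% and 14.4% of all genes passed. The same mice led them: the Xiap-/- mouse 3 housed apart was the highest of its group in 24 of 30, the co-housed wild-type mouse 2 in 17, the co-housed Xiap-/- mouse 3 in 17 and the wild-type mouse 3 housed apart in 10. The medians above the rest of the group were 0.38, 0.19, 0.17 and 0.19. B2m, the light chain of MHC class I and the highest of these in mean, stood 0.30, 0.18, 0.04 and 0.17 above the rest in those mice. Ddx60, an RNA helicase named after its values were seen, stood 0.90 and 0.91 above the rest in the first 2 of them, and -0.02 in the co-housed Xiap-/- mouse 3.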

How the data were processed

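The file that the authors deposited holds log2-scale normalized values (-3.88 to 16.30) of 23020 genes in 20 libraries. Per the submitters' processing notes, the tool was DESeq2 1.18.1 and the build GRCm38.p6. The transformation, aligner, counting and strand setting are not given in the sources used here. Depth is therefore unknown, so counting errors cannot be stated. The labels' extraction protocol names liver; every other label names crypts or small intestine.

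Values were used as deposited, without a pseudocount. The fit (limma 3.58.1, R 4.3.3) was 1 model of 4 group means over all genes with a mean of at least log2 of 10, a variance trend and robust moderation, two-sided, with Benjamini-Hochberg adjustment over 9521 genes. A difference carries its standard error from the model, and a group mean its standard deviation over mice. The labels do not say which mice shared a cage, and the tests took the mice as independent. Mice housed apart were kept by genotype, so cage and genotype cannot be told apart there. Differences between housings cannot be told apart from differences between cages either. The code was tested on simulated data.

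The members and lists were chosen with earlier results of these data known. Named were, per comparison, the members called or, with fewer than 3, the 3 with the smallest p, the member with the highest mean of each role, and Irf7, Isg15, Ifit1, Stat2 and Oas2, and per pathway list the called genes or else the one with the highest mean. Other genes were named after their values were seen. Promoters came from RefSeq (GRCm38.p6) and positions from GENCODE M21. Shared 3′ ends were searched with blastn 2.17.0 over the last 400 bases (at least 95% identity over 50 bases). They were found for 5 of 42 members, Ifit3, Oas1a, Isg15, Irf9 and Oas3. Alternatives were sample weights, a depth covariate, the replicate block, quantile normalization, no trend, no minimum mean, only the groups compared, and leaving out each mouse. One gene of the pathway lists is not reported here.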

Additional observations from a re-analysis of the deposited data

Results flagged for a closer look

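In 6 of 76 combinations of a group and a value, 1 mouse lay farther from the others than Dixon's 95% limit for the size of the group. Chance gives this in about 1 in 20 groups, and the genes are not independent of each other. In the Xiap-/- mice housed apart, the mean over the 31 tested interferon-stimulated genes was 6.11 in mouse 3 and between 5.68 and 5.70 in the other 3. In the same mouse Ifi27 was 7.11, with 6.40 to 6.49 in the others, and Stat2 was 6.03, with 5.66 to 5.71 in the others. In the co-housed Xiap-/- mice, Bst2 was 5.09 in mouse 3, with 4.63 to 4.72 in the others. Mouse 5 of that group was low in Irf1, at 7.82 against 8.01 to 8.07, and in Zc3hav1, at 6.57 against 6.72 to 6.76.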

How the results depend on the processing

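Direction was followed for the 3 members with the smallest p in each comparison, and for Stat3 and Socs3 in genotype averaged over housings. No alternative reversed it for these genes. The directions of the other called genes were not followed. Sample weights in limma gave 3 interferon-stimulated genes for genotype in mice housed apart (Ifi27, Stat2 and Irf1, adjusted p 0.0426, 0.0154 and 0.0390). They gave 3 for housing in Xiap-/- mice (the same genes, 0.0273, 0.0276 and 0.0495) and 1 for genotype averaged over housings (Ifi27, 0.0432). In the same order, 385, 224 and 791 of all tested genes passed with weights. Leaving out single mice gave 0 to 2 for genotype in mice housed apart, 0 to 1 for housing in Xiap-/- mice, 0 to 1 for genotype averaged over housings and 0 to 1 for housing averaged over genotypes. These came from leaving out the wild-type mouse 5 housed apart (Ifi27 at 0.00487, 0.0296 and 0.015 and Stat2 at 0.0315) or, for the last, mouse 4 of that group (Ifi27 at 0.0380). The other comparisons stayed at 0 of 31 in all fits run. The median over the 31 genes for the difference between genotype differences was 0.12 without the Xiap-/- mouse 3 housed apart and -0.03 with it. The cause was not tested.

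Counts over all genes moved more. For genotype in mice housed apart, 43 became 3 with the depth covariate, 12 with only the groups compared, 65 without trend, 385 with weights and 9 (without the Xiap-/- mouse 2) to 697 (without the wild-type mouse 5) with single mice left out. In co-housed mice, 3 became 10 without the minimum mean, 142 with only the groups compared, 159 with weights and 1 to 12 with mice left out. For housing in wild-type mice, 0 became 5 without the minimum and 5 with weights, and up to 66 without mouse 4 housed apart. For housing in Xiap-/- mice, 14 became 1 with the depth covariate, 169 with only the groups compared, 23 without trend, 224 with weights and 2 to 64 with mice left out. The 1 gene of the difference between genotype differences became 4 with weights. For genotype averaged over housings, 196 became 6 with the depth covariate, 791 with weights and 36 to 956 with mice left out. For housing averaged over genotypes, 17 became 4 with the depth covariate, 27 without the minimum, 135 with weights and 6 to 226 with mice left out. Quantile normalization shifted the median of all genes by at most 0.003.

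With the replicate number as a block, 3 of the 31 genes passed for genotype in mice housed apart (Ifi27, Stat2 and Irf1, limma adjusted p 0.00968, 0.0493 and 0.0314), and Ifi27 alone passed, 1 gene each, for housing in Xiap-/- mice (0.00860), genotype averaged over housings (0.0268) and housing averaged over genotypes (0.0337). Over all genes the block gave 350, 189, 582 and 98, and 10 for the difference between genotype differences. The labels tie no numbers across groups. For genotype, same-numbered mice deviated together at correlations over 0.1 in 2 of 4 pairs housed apart and 1 of 5 co-housed. For housing, they did in 2 of 5 pairs in wild-type and 2 of 4 in Xiap-/- mice. A mouse correlated best with its own number in 2, 1, 1 and 2 of those pairs. Whether mice of the same number shared a batch or cage was not tested and cannot be told from the labels.

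The limits are the unknown depth, the unstated transformation, which may shrink differences of low genes, and groups of 4 to 6 mice. In mice housed apart, the half-width of the unadjusted 95% interval had a median of 0.21 over the 31 genes, and differences above it, such as 0.44 in Ifi27, did not pass after adjustment.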
